A study of Mus musculus with 6 samples.

Results

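The interferon-inducible GTPases of the guanylate-binding protein (GBP) and immunity-related GTPase (IRG) families were examined in the colon of mice lacking NHE3, the sodium-proton exchanger encoded by Slc9a3. The 10 genes Gbp2, Gbp3, Gbp6, Gbp7, Iigp1, Igtp, Irgm1, Irgm2, Ifi47 and Tgtp1 were looked up in the platform annotation, and every probe set naming exactly one of them was taken. That gave 13 of the 45101 probe sets on the array, for 9 of the 10 genes. Tgtp1 was named only together with its near copy Tgtp2 on a shared probe set, so it has no value of its own. The series holds 3 arrays of NHE3-/- colon and 3 arrays of colon from NHE3+/+ littermates, numbered 1 to 3 in each genotype, all from mice of 6 to 8 weeks. Whole colon was used, with total RNA hybridised to Affymetrix MOE430 2.0 arrays, which read each transcript with a set of short probes. The labels state neither that each array stands for a separate animal nor the sex of the mice, so the p-values rest on differences between arrays that may be technical in part or whole. They also do not give the disrupted region of Slc9a3.

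GBPs and IRGs are large cytosolic GTPases whose genes are switched on mainly by interferon-gamma, acting through the receptor chains Ifngr1 and Ifngr2, the kinases Jak1 and Jak2 and transcription factors that include IRF1. In mouse cells the proteins gather on vacuoles and bacteria, a step that uses conjugated ubiquitin-like proteins of the Gabarap and Map1lc3 family. Among the IRGs, Irgm1, Irgm2 and Igtp are regulators that sit on the cell's own membranes, while Iigp1, Ifi47 and Tgtp1 are effectors that coat pathogen vacuoles. In the gut these genes are expressed by epithelium and by immune cells, and in whole tissue a change in the number of such cells and a change in RNA per cell cannot be told apart.

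The genes lie in clusters. In the RefSeq gene order (GRCm38.p6) Gbp7 and Gbp3 are adjacent and 1 gene, Gbp2b, separates Gbp3 from Gbp2, while Igtp and Irgm2 are adjacent on another chromosome. RefSeq promoter windows, from 250 bases before to 50 bases after the transcription start, were found for 8 members (none for Gbp6 and Iigp1). They were searched on both strands for the core of the interferon response element (GAAA, any 2 bases, GAAA), bound by IRF proteins, and for the gamma-activated site TTCNNNGAA. The first occurred in 7 of the 8 members, against 3.99% of 27025 genes with a window, and the second in 4 of 8, against 9.55%. No match of one motif overlapped a match of the other. The stretches holding the matches are shown 5′ to 3′ on the gene's strand because they are what most of these genes have in common in sequence. Capitals mark every match to either motif, and the interferon response element reads TTTC, 2 bases, TTTC where it lies on the opposite strand.
Gbp2, chr3:142620592-142620625 (+): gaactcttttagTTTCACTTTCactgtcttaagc
Gbp3, chr3:142559987-142560026 (+): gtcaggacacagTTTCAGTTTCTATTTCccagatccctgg
Gbp7, chr3:142530218-142530304 (+): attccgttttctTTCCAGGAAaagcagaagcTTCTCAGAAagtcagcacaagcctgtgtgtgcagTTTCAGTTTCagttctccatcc
Igtp, chr11:58199499-58199543 (+): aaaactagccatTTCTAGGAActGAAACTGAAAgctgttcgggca
Irgm2, chr11:58214890-58214934 (+): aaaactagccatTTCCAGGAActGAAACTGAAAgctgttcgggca
Tgtp1, chr11:48992302-48992346 (-): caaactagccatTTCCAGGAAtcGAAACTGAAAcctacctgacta
Irgm1, chr11:48871423-48871462 (-): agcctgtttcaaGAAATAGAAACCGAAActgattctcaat

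In Gbp3 and Irgm1 a pair of interferon response elements overlap each other and form 1 run of capitals. Igtp, Irgm2 and Tgtp1 carry a gamma-activated site shortly before the interferon response element. The Igtp and Irgm2 windows share a run of 61 identical bases, and the Irgm2 and Tgtp1 windows share a run of 20. The Ifi47 window held neither motif, which says only that these letters are not in it.

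None of the 13 probe sets differed between NHE3-/- and NHE3+/+ colon at the threshold. With limma on log2(signal + 31.4) and Benjamini-Hochberg adjustment over the 27024 probe sets tested, all 13 passed the filter on dim probe sets and 0 were called, against 11.2% of all probe sets tested (4.97% higher and 6.24% lower in NHE3-/- colon). At an unadjusted p under 0.05 there were 2 of 13, against 27.6% of all tested. Log2 fold changes, NHE3-/- minus NHE3+/+, ran from -0.57 to 0.70, with 6 above 0 and 7 below, and their median was -0.08, beside -0.10 for all probe sets tested. Adjusted p-values ran from 0.146 to 0.909. The standard errors were wide, with a median of 0.29 beside 0.21 for all tested, and the 95% intervals of the 13 log2 fold changes reached as low as -1.32 and as high as 1.36.

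The members varied together from array to array. NHE3-/- array 2 had the highest signal of its genotype for 13 of 13 probe sets, against 33.1% of all probe sets tested, and the highest of all 6 arrays for 11 of 13, against 9.49%. Its signal was 1.48 to 3.07 times the mean of NHE3-/- arrays 1 and 3 (median 2.28), while the median over all probe sets tested was 1.00. It was at least 1.5 times that mean for 12 of the 13, against 8.4% of all tested. Among NHE3+/+ arrays, array 3 was the lowest for 13 of 13 probe sets, against 33.2% of all tested, at 0.48 to 0.89 times the mean of arrays 1 and 2. Array 1 or array 3 of the NHE3-/- group was the lowest of all 6 arrays for 9 probe sets (5 and 4), and NHE3+/+ array 3 for the other 4.

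**Figure D1:**
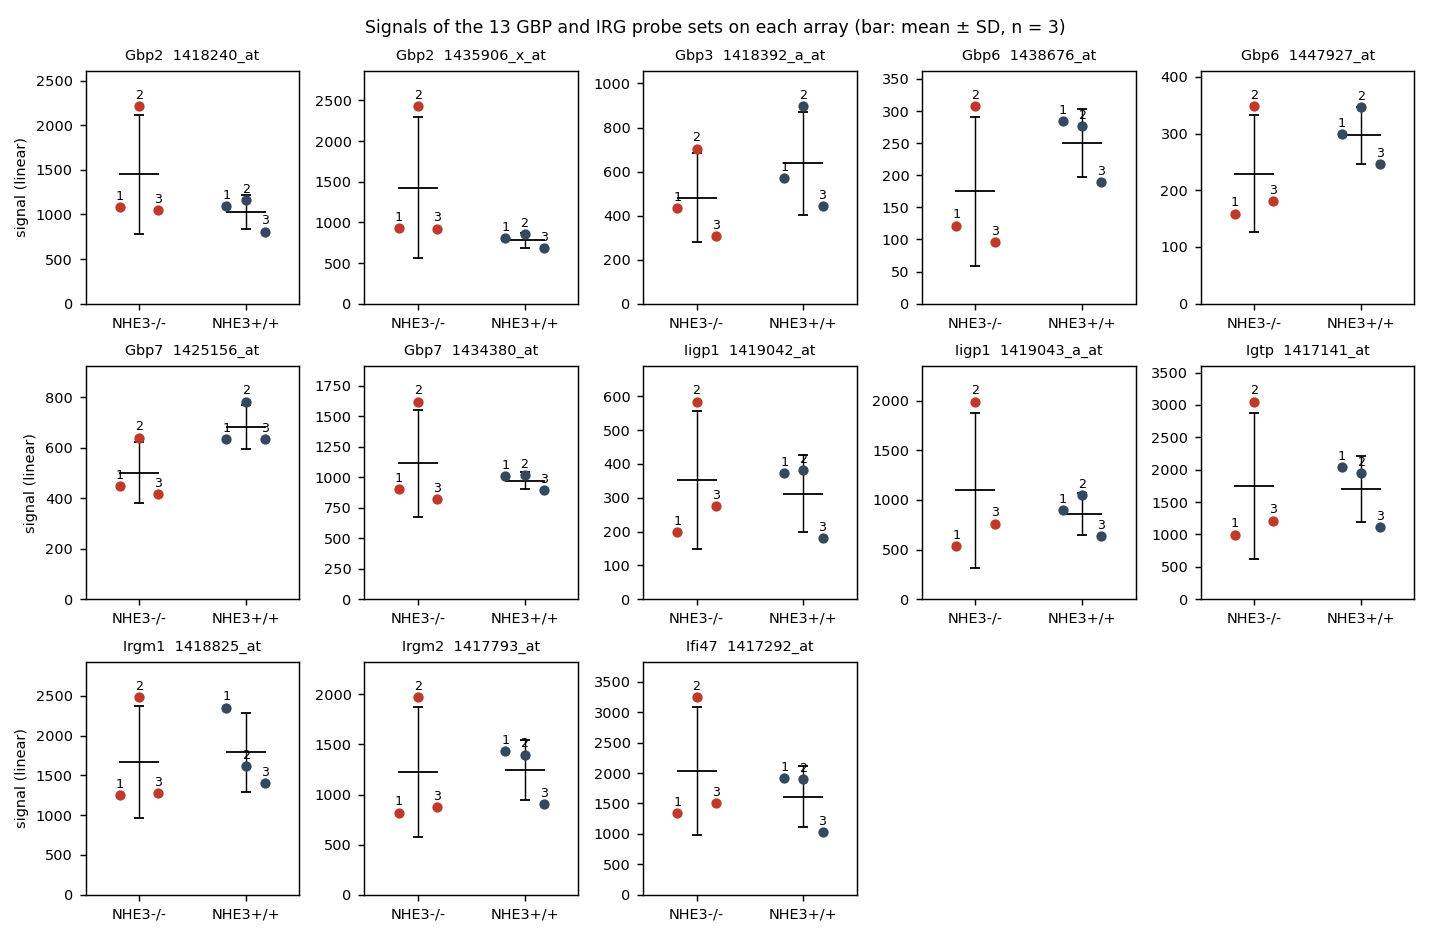
Signal (linear scale, y axis from 0) of each of the 13 GBP and IRG probe sets on the 3 NHE3-/- arrays (left, red) and the 3 NHE3+/+ arrays (right, blue), with points numbered by array and black bars giving mean ± SD (n = 3). NHE3-/- array 2 is the highest red point and NHE3+/+ array 3 the lowest blue point in every panel, and the groups overlap in all panels but that of Gbp2 probe set 1435906_x_at.

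Of the GBPs, Gbp2, which acts on bacteria and on parasite vacuoles, had the highest log2 fold changes of the members. Probe set 1418240_at gave signals of 1084.7, 2213.5 and 1046.7 on NHE3-/- arrays 1, 2 and 3, against 1096.5, 1165.2 and 808.1 on NHE3+/+ arrays 1, 2 and 3. NHE3-/- array 2 was the highest, the other 5 arrays lay between 808.1 and 1165.2, and the groups overlapped (log2 fold change 0.42, SE 0.25, 95% interval -0.14 to 0.98, limma adjusted p = 0.314). Probe set 1435906_x_at gave 927.8, 2429 and 924 in NHE3-/- colon, against 805.5, 856.6 and 681.1 in NHE3+/+ colon. Here the genotypes did not overlap, which holds for 32.3% of all probe sets tested and for 1 of the 13 here. The log2 fold change was 0.70 (SE 0.30, 95% interval 0.03 to 1.36, limma unadjusted p = 0.0415, adjusted p = 0.163). In Affymetrix naming, the suffix _x_at marks a set with probes that can also bind other transcripts, so among similar GBP transcripts its reading is the less certain one.

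Gbp7, the neighbour of Gbp3 in the cluster, was read by a pair of probe sets that moved differently. Probe set 1425156_at gave 448.1, 639.3 and 415.3 in NHE3-/- colon, against 632.6, 781.4 and 632 in NHE3+/+ colon. Only NHE3-/- array 2 reached the NHE3+/+ range (log2 fold change -0.44, SE 0.18, 95% interval -0.84 to -0.04, limma unadjusted p = 0.0342, adjusted p = 0.146). Probe set 1434380_at gave 901.7, 1618.9 and 818.6 in NHE3-/- colon, against 1006.4, 1016.4 and 895.4 in NHE3+/+ colon (log2 fold change 0.13, SE 0.22, adjusted p = 0.749). The log2 fold changes of the pair differed by -0.56, and the log2 ratio of the first to the second did not overlap between the genotypes, at -1.30 to -0.93 in NHE3-/- and -0.64 to -0.37 in NHE3+/+ colon (exact permutation test over arrays, two-sided p = 0.1, the lowest value this design can give). For Gbp2 the first probe set's log2 fold change was lower than the second's by 0.28, the ratios did not overlap either, and the exact permutation p was again 0.1. The probe sets of Gbp6 and of Iigp1 did not differ in this way (differences -0.18 and -0.06, exact permutation p = 0.5 and 0.8). These are 4 comparisons, none of which could pass 0.05 in this design.

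Gbp3 and Gbp6 were on average lower in NHE3-/- colon without passing the test. Gbp3 gave 435, 703.9 and 305.9 in NHE3-/- colon, against 571.9, 896.9 and 443.7 in NHE3+/+ colon (log2 fold change -0.40, SE 0.29, adjusted p = 0.409). Here NHE3+/+ array 2 was the highest of the 6. Gbp6 probe set 1438676_at gave 121.6, 307.6 and 95.6 in NHE3-/- colon, against 283.9, 277 and 188.9 in NHE3+/+ colon (log2 fold change -0.57, SE 0.34, 95% interval -1.32 to 0.18, adjusted p = 0.308). Arrays 1 and 3 of the NHE3-/- group lay below all 3 NHE3+/+ arrays and array 2 lay above them. The other Gbp6 probe set, 1447927_at, gave 159, 348.2 and 180.3, against 298.6, 346 and 245.4 in NHE3+/+ colon (log2 fold change -0.39, SE 0.27, adjusted p = 0.376), and again arrays 1 and 3 of the NHE3-/- group lay below all NHE3+/+ arrays.

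The regulatory IRGs had log2 fold changes close to 0. Irgm1, whose loss makes mice susceptible to intracellular bacteria, gave 1249.5, 2480.4 and 1275.4 in NHE3-/- colon, against 2350.1, 1618.7 and 1402.9 in NHE3+/+ colon (log2 fold change -0.14, SE 0.25, adjusted p = 0.763). Irgm2 gave 819, 1971.6 and 876.8, against 1437.6, 1399.9 and 905.1 in NHE3+/+ colon (-0.12, SE 0.29, adjusted p = 0.832). Their arrays 1 and 3 of the NHE3-/- group lay below all NHE3+/+ arrays, and array 2 above all of them. Igtp, which guards lipid droplets and endoplasmic reticulum membranes, gave 996.3, 3049.5 and 1214.1, against 2038.8, 1944.4 and 1109.7 in NHE3+/+ colon (-0.08, SE 0.35, 95% interval -0.86 to 0.70, adjusted p = 0.909). The signal on NHE3-/- array 2 was 2.76 times the mean of the other NHE3-/- arrays for Igtp, 2.33 times for Irgm2 and 1.96 times for Irgm1.

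The effector IRGs with probe sets of their own, Iigp1 and Ifi47, had log2 fold changes above 0 that were smaller than their standard errors. The probe set shared by the effector Tgtp1 and Tgtp2 stood higher, at 0.86 (SE 0.41, limma adjusted p = 0.198), and was not called. Iigp1, the best studied vacuole-coating IRG, gave 535.7, 1987.9 and 760.1 with its brighter probe set 1419043_a_at in NHE3-/- colon, against 894.9, 1044.5 and 634.6 in NHE3+/+ colon. Its NHE3-/- array 2 stood at 3.07 times the mean of arrays 1 and 3, the largest such ratio among the members (log2 fold change 0.15, SE 0.37, 95% interval -0.67 to 0.97, adjusted p = 0.830). The dimmer probe set 1419042_at gave 197.6, 583.8 and 275.1, against 373.9, 381.1 and 181.3 in NHE3+/+ colon (0.09, SE 0.36, adjusted p = 0.896). Ifi47 gave 1344.1, 3245.2 and 1503.6, against 1914.7, 1894.2 and 1029.1 in NHE3+/+ colon (0.27, SE 0.31, 95% interval -0.42 to 0.95, adjusted p = 0.624). For Iigp1 and Ifi47, as for Igtp, NHE3+/+ array 3 fell within the range of NHE3-/- arrays 1 and 3 or below it.

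Across the 36 pairs of the 9 genes, each read by its brightest probe set on average, Pearson's r of log2 signals over the 6 arrays ran from 0.49 to 0.99 with a median of 0.84. With each genotype's mean removed the median was 0.93, from 0.60 to 1.00. These values are a description of 6 arrays whose members share library and scaling. The median deviation of the 13 probe sets from their 6-array mean was -0.40, 0.73 and -0.38 (log2) on NHE3-/- arrays 1, 2 and 3, and 0.16, 0.25 and -0.36 on NHE3+/+ arrays 1, 2 and 3. Over all probe sets tested the same medians lay between -0.03 and 0.07, a narrower range than that of the members. Among 12544 other genes, those whose profile over the 6 arrays was most like the members' mean were Septin4 (r = 0.99), Dbil5 (0.98), Katna1 (0.98), 5730507C01Rik (0.96) and Snd1 (0.95). With 6 arrays and this many genes such values are a ranking only. Septin4, Dbil5 and 5730507C01Rik had low signals, at most 152.1, 141.9 and 141.8 on any array, where array medians were 97.8 to 121.4. Katna1, a microtubule-severing enzyme subunit, spanned just 1092.5 to 1317.9 over the NHE3-/- arrays and 1105.1 to 1231.2 over the NHE3+/+ arrays.

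NHE3-/- array 2 was singled out after its values were seen, and since it was the highest of its genotype for every member, leaving it out lowers all 13 estimates by construction. The values without it are therefore a description of how far it carried them. In that fit 11 of 13 log2 fold changes were below 0, with a median of -0.46 beside -0.09 for all probe sets tested. At an unadjusted p under 0.05 there were 7 of 13, against 25.8% of all probe sets in that fit, and 1 passed the adjusted threshold, Gbp6 probe set 1438676_at (log2 fold change -0.99, limma adjusted p = 0.0485), against 8.95% of all probe sets in the same fit in either direction and 5.13% lower. The next lowest adjusted p was that of Gbp7 probe set 1425156_at (-0.62, adjusted p = 0.0564). NHE3-/- arrays 1 and 3 both lay below all 3 NHE3+/+ arrays for 6 of 13 probe sets, against 26.9% of all tested, and both above them for 1, Gbp2 probe set 1435906_x_at, against 16.4%. Gbp2 kept log2 fold changes above 0 (0.07 and 0.24) in this fit. Leaving out NHE3-/- array 1 instead gave a median of 0.23 and leaving out NHE3+/+ array 3 gave -0.30.

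**Figure D2:**
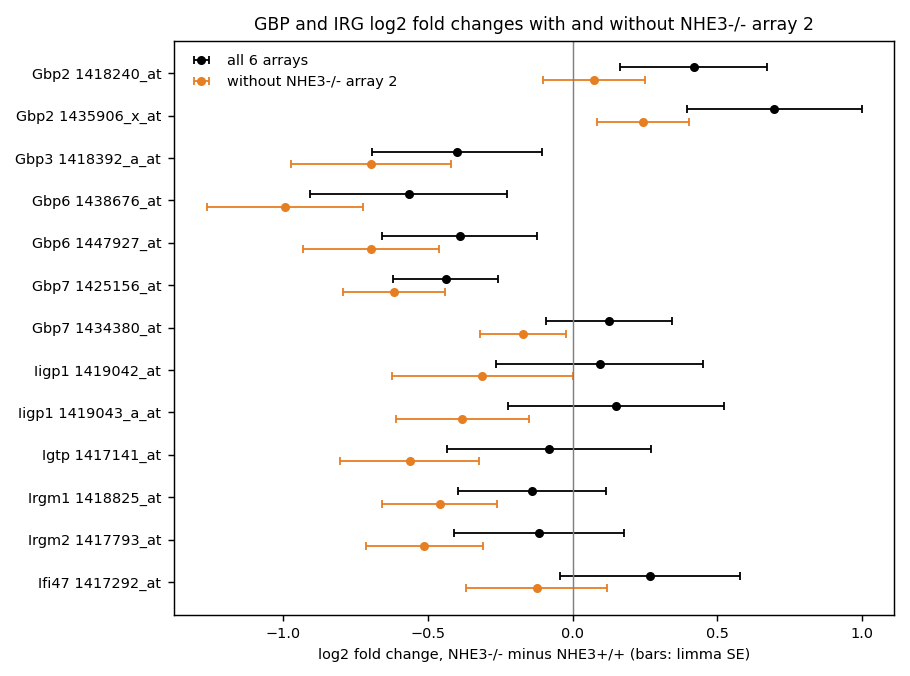
Log2 fold change (x axis, NHE3-/- minus NHE3+/+) of each of the 13 probe sets with limma's standard error as bars, for all 6 arrays (black) and without NHE3-/- array 2 (orange). All 13 estimates move down when that array is left out, as they must since it is the highest of its genotype for each, and 11 then lie below 0.

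Some genes upstream of the GTPases passed the test. The lists here and below were drawn up with earlier results of these data known, each gene is read by its brightest probe set on average, and the members are not counted in them. Of 23 measured interferon ligand, receptor and signalling genes, 6 rose in NHE3-/- colon and 0 fell, with a median log2 fold change of 0.21. Ifngr1, the ligand-binding chain of the interferon-gamma receptor, gave 4889.5, 4455 and 5090 in NHE3-/- colon, against 2717.7, 2944.1 and 2585.1 in NHE3+/+ colon (log2 fold change 0.80, SE 0.10, limma adjusted p = 0.000941). The groups were far apart and NHE3-/- array 2 was the lowest of its genotype. Ifngr2, the signalling chain, rose by 0.83 (SE 0.14, adjusted p = 0.00428), with its dimmer probe set at 0.39 and not called, and the receptor kinase gene Jak2 rose by 0.58 (SE 0.13, adjusted p = 0.0147). Irf1, the transcription factor that drives GBP and IRG genes, gave 6298.5, 7933.5 and 7074.4 against 4100.1, 5428.7 and 5322.1 in NHE3+/+ colon (0.52, SE 0.13, adjusted p = 0.0286). Socs3, a feedback inhibitor of JAK kinases, rose by 1.77 (SE 0.17) and the cytokine gene Il18, whose product induces interferon-gamma, by 0.89 (SE 0.11). Ifng itself was dim, with 3.6, 54.5 and 16.6 in NHE3-/- colon and 2.7, 80.5 and 27.6 in NHE3+/+ colon, and did not pass the filter. The Irf1 call was lost without NHE3-/- array 2 or 3 or NHE3+/+ array 1, with no filter on dim probe sets, with quantile normalization and without the mean-variance trend. The Jak2 call was lost without NHE3-/- array 1 or without the trend, and the Ifngr2 call without the trend.

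Other interferon-gamma targets gave 5 higher and 0 lower of 26 measured, with a median of 0.21. Those that rose were Ubd, a ubiquitin-like modifier (log2 fold change 3.18, SE 0.31), Nos2, the inducible nitric oxide synthase (3.02, SE 0.34), Ido1, which degrades tryptophan (1.23, SE 0.20), and the proteasome genes Psmb10 (0.54, SE 0.13) and Psme1 (0.51, SE 0.11). Nos2 was dim in NHE3+/+ colon (50, 6.5 and 5.4, against 393.2, 356.9 and 339.8 in NHE3-/- colon). Its size hangs on the constant added before the log, being 4.75 with 1 and 1.96 with 100, and it was called with both. Ubd gave 1859.7, 2130.7 and 4971 in NHE3-/- colon, against 208, 317.3 and 299.2 in NHE3+/+ colon, so that its highest array was NHE3-/- array 3. Ido1 gave 1495.1, 2697.2 and 1583.8, against 792.5, 788.8 and 739.7 in NHE3+/+ colon, with array 2 highest as for the GTPases but no overlap of the genotypes. NHE3-/- array 2 was the highest of its genotype for 21 of these 26 genes. Psmb10 was not called without NHE3-/- array 2 or NHE3+/+ array 1 or 3, with quantile normalization or without the trend, and Psme1 was not called without the trend. Without NHE3-/- array 2, 2 genes of the list were called lower, against 0 with all arrays, and without NHE3-/- array 1, 9 were called higher.

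Type I interferon-stimulated genes, a programme driven by IRF7 and IRF9 complexes, gave 0 higher and 9 lower of 27 measured, with a median log2 fold change of -0.70. Ifi27l2a fell by 3.73 on the log2 scale (SE 0.33), Rsad2 (viperin) by 1.35 (SE 0.21) and Irf7, the factor that amplifies this programme, by 0.92 (SE 0.15). The dimmer Rsad2 probe sets gave -1.24, which was called, and -0.73, which was not. Other calls held less well, those of Ifit3, Mx1 and Oas3 each being lost with quantile normalization, with array medians set equal and without the trend. Irf7 gave 4395.7, 5570 and 3747.3 in NHE3-/- colon, against 8495.1, 9777.4 and 7499.9 in NHE3+/+ colon. NHE3-/- array 2 was the highest of its genotype for 25 of the 27 genes, as for all members, yet for Irf7 it stayed below every NHE3+/+ array. The number lower was 15 without NHE3-/- array 2, and 5 without NHE3-/- array 1, NHE3-/- array 3 or NHE3+/+ array 2.

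**Figure D3:**
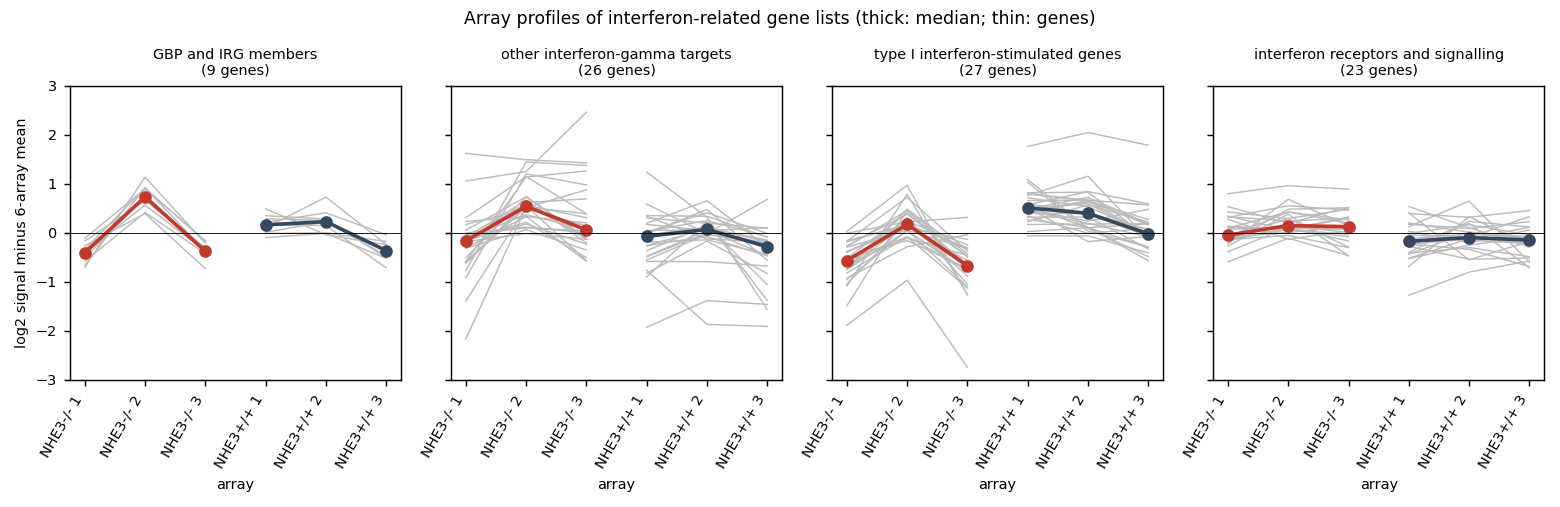
Log2 signal minus the gene's mean over the 6 arrays (y axis) on each array (x axis), for the 9 measured GBP and IRG genes and 3 lists of interferon-related genes; thin lines are genes and thick lines medians, red for NHE3-/- and blue for NHE3+/+. The members' median peaks on NHE3-/- array 2 at 0.73, the type I list's is highest on NHE3+/+ array 1 (0.51), and the receptor and signalling list's lies between -0.05 and 0.15 on NHE3-/- and between -0.17 and -0.10 on NHE3+/+ arrays.

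Of the other members of the families, Gbp2b, the neighbour of Gbp2, gave 2177.1, 5109.7 and 1804 in NHE3-/- colon, against 1983.5, 2426.9 and 1448.5 in NHE3+/+ colon, and was not called (log2 fold change 0.50, SE 0.32, adjusted p = 0.337). It had the same high NHE3-/- array 2, and without that array its log2 fold change was 0.05. Gbp8 (0.63, SE 0.28, limma adjusted p = 0.169) and Irgq (-0.23, SE 0.17, limma adjusted p = 0.429) were not called either. That makes 0 called among the 3 measured, against 11.2% of all probe sets tested. Gbp8 alone had an unadjusted p under 0.05, against 27.6% of all tested. With 3 genes these counts cannot be told from those shares. Irgq, an IRG relative that is not known to be induced by interferon, had its lowest NHE3-/- signal on array 2 (542.7). Gm4951 and Irgc1 were below the filter, and the rest of the list had no probe set of its own here.

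Among genes of the autophagy and ubiquitin machinery, 3 of 19 rose and 0 fell. These were the ubiquitin-like proteins Gabarap (log2 fold change 0.42, SE 0.10), Gabarapl2 (0.46, SE 0.11) and Map1lc3b (0.37, SE 0.10), of the family that helps to place GBPs and IRGs on target membranes. The dimmer probe sets of Map1lc3b were not called and differed in direction (0.34, 0.32 and -0.86). Of the same family, Gabarapl1 (-0.33 and -0.24 on its probe sets) and Map1lc3a (0.14 and 0.18) were not called. Each of the 3 calls was lost in at least 3 of the 6 fits that left out 1 array, and without NHE3-/- array 1, NHE3-/- array 3 or NHE3+/+ array 3 none of the list was called. Of 11 inflammasome and pyroptosis genes, 3 rose and 0 fell. Gsdmd, the pore-forming protein cut by the caspases that GBPs help to activate, gave 5528.1, 6294 and 6316.4 in NHE3-/- colon, against 2896.6, 3171.7 and 2673.1 in NHE3+/+ colon (1.05, SE 0.11, adjusted p = 0.000211). Casp8 rose by 0.41 (SE 0.09), a call lost without NHE3-/- array 2 or NHE3+/+ array 3, with quantile normalization or without the trend. Il18 is counted in this list too. In neither list did NHE3-/- array 2 stand out as for the members, being highest of its genotype for 3 of 19 and 6 of 11 genes.

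**Figure D4:**
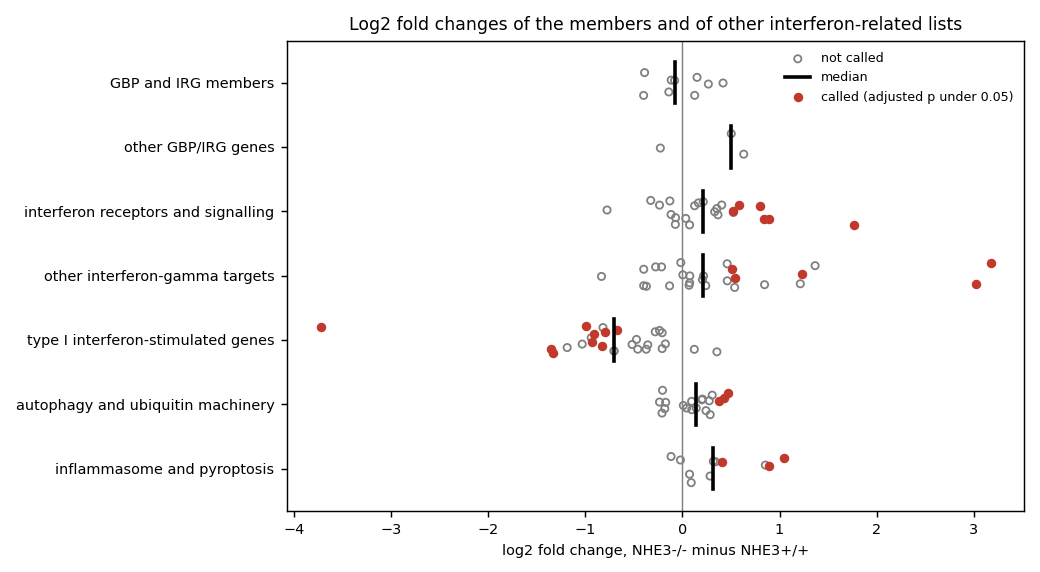
Log2 fold change (x axis, NHE3-/- minus NHE3+/+) of each measured gene in the GBP and IRG members and 6 other lists; filled red points passed the limma threshold, open points did not, and black bars mark list medians. None of the 9 member genes is filled, while the called type I interferon-stimulated genes all lie left of 0 and the called signalling genes all lie right of it.

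Markers of cells that can carry or induce these GTPases were read beside them, each list by its summed signal. The T cell list (8 genes, 0 of 6 tested called) summed to 820.2, 831.5 and 856.8 on NHE3-/- arrays 1, 2 and 3, against 599.1 to 1522.6 over NHE3+/+ arrays. The list of NK and cytotoxic cells (7 genes) summed to 1764.2, 2316.4 and 2375.7, against 1205.7 to 1581.2 in NHE3+/+ colon, with Gzma called higher (1.31, SE 0.17) among 5 tested. Most of that sum in NHE3-/- colon was Gzma itself, with 978.5, 1371 and 1376.4, against 409.7 to 544.4 in NHE3+/+ colon. The other genes tested were not called and went both ways (Gzmb -0.16, Prf1 -0.04, Nkg7 0.27 and Klrd1 0.37). On both lists NHE3-/- array 2 lay between the others of its genotype. The macrophage list (10 genes) summed to 7508.5, 8584.4 and 5991.7, highest on NHE3-/- array 2, against 4301.8 to 7284.7 in NHE3+/+ colon, with Cd14 called higher (1.51, SE 0.15) among 9 tested. Most of that sum in NHE3-/- colon was Cd14 itself, with 3796.2, 5013.5 and 3127.7, against 1290.6 to 1389.6 in NHE3+/+ colon. The median log2 fold change of the macrophage list was 0.0025, so its sum mainly describes Cd14. The list of B cells and plasma cells (7 genes) summed to 7859.2, 10759.5 and 6390, against 6806.8 to 8937.2 in NHE3+/+ colon. Most of that sum was the plasma cell gene Jchain, with 5868.6, 9591.6 and 5579.1 in NHE3-/- colon. The list's median log2 fold change was -1.13, with Fcer2a called lower, and NHE3-/- array 2 was the highest of its genotype for 1 of the 7 genes. The neutrophil list (5 genes) summed to 3264.7, 919.7 and 1572.4, against 195.2 to 285 in NHE3+/+ colon. Of it only S100a8 passed the filter and it was called higher (4.20, SE 0.39), with 717.7 on NHE3-/- array 2 as the lowest of its genotype. Dendritic cell, endothelial, smooth muscle and fibroblast lists had no call. No marker was listed at 0, and the part of these cells in the array differences of the GTPases was not tested.

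As to the arrays as a whole, correlations of log2 signals were 0.965 to 0.973 within NHE3-/-, 0.969 to 0.970 within NHE3+/+ and 0.932 to 0.959 between genotypes, and no array stood apart. Colonic epithelium was abundant on all arrays, the goblet cell mucin Muc2 giving 41765.1 to 50501.1 in NHE3-/- and 41722.2 to 56556.5 in NHE3+/+ colon. Of the 11 epithelial genes tested, 2 were called higher (Slc26a3 0.72, SE 0.13, and Vil1 0.41, SE 0.10). Another 2 were called lower (Krt18 -0.81, SE 0.11, and Cdx2 -0.58, SE 0.13), so the epithelial RNA was not unchanged. The brighter Slc9a3 probe set gave 5970.4, 4265.6 and 3665.3 on arrays labelled NHE3-/-, against 5908.3, 5647.4 and 6668.7 on NHE3+/+ arrays, and was not called (-0.42, SE 0.16, adjusted p = 0.120), although it was without NHE3-/- array 1 (-0.61, adjusted p = 0.0199). The dimmer Slc9a3 probe set had a log2 fold change of 0.76 in the other direction (SE 0.39, limma adjusted p = 0.230). Either checks the labels only if its probes lie in the disrupted region. Xist, made from the inactive X chromosome of females, gave 1561.9, 1404.5 and 80.8 in NHE3-/- colon, against 207.7, 175.6 and 142.4 in NHE3+/+ colon. This brighter Xist probe set was not called (1.63, SE 0.77, limma adjusted p = 0.199), while the dimmer one was called higher (4.08, SE 1.17, limma adjusted p = 0.0475). The Y-linked genes Eif2s3y and Kdm5d gave 932.6, 1088.1 and 1355.4, and 341.3, 405.5 and 732.9, on the same NHE3-/- arrays, against 1434.3 to 1808.9 and 654.2 to 783.6 on NHE3+/+ arrays. Y-linked Uty did not follow them with its brightest probe set, at 338.9, 316.8 and 450.6 against 240.6 to 430 on NHE3+/+ arrays (0.16). Its other probe sets gave -0.05, -0.33 and -1.27, of which only the last was called (limma adjusted p = 0.0139). NHE3-/- arrays 1 and 2 thus carried both Xist and Y-linked signal, and the labels do not say whether animals were pooled. The part of sex in the array differences of the GTPases was not tested. With array 3 as the only NHE3-/- array, 0 of the 13 probe sets were called, against 7.53% of all tested, and the median log2 fold change was -0.42.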

How the data were processed

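Deposited signals (intensity, linear scale, never log-transformed) were used, from 3 NHE3-/- and 3 NHE3+/+ arrays. Per the submitters' processing notes the authors used GCOS, the Affymetrix software; its version and settings are not given in the sources used here. By the values, each array has a mean of 500 after trimming 2% from each end, and no further normalization was applied here. Tests used log2(signal + 31.4), where 31.4 is the 25th percentile of all values; this constant shrinks the fold changes of dim genes. The 64 control probe sets were dropped, as were dim ones (mean log2 below the 40th percentile). NHE3-/- was compared with NHE3+/+ by limma 3.58.1 in R 4.3.3 (lmFit, eBayes with a mean-variance trend, two-sided), with Benjamini-Hochberg adjustment over all 27024 probe sets tested and a threshold of 0.05; SE is limma's standard error. The fit was tested on simulated data. The number of arrays limits the precision.

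The platform annotation supplied gene names: 34958 probe sets carry 1 gene, 932 carry several and 9211 carry none. Symbols were updated through a RefSeq table (GRCm38.p6) holding 34754 of the 34958 IDs; promoter sequences are RefSeq's for that assembly. The named genes are all member probe sets, Slc9a3, sex-linked genes, called genes of the lists or at most 5 others in a list, and the 5 genes of most similar profile. Members and lists were chosen with earlier results of these data known. Replicate numbers did not pair the samples: deviations of same-numbered arrays from their group means correlated at 0.026, -0.038 and 0.0034.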

Additional observations from a re-analysis of the deposited data

How the results depend on the processing

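The count of 0 member probe sets higher held under all 15 alternatives, and the count of 0 lower under all but 1: leaving out 1 array gave 0 to 1 lower, the 1 being Gbp6 probe set 1438676_at without NHE3-/- replicate 2 (-0.99). At an unadjusted p under 0.05 the member probe sets numbered from 0 (eBayes without a trend, or without NHE3+/+ replicate 2) to 7 (without NHE3-/- replicate 2). The share of all probe sets at that level was 27.6% in the main fit and 25.8% without NHE3-/- replicate 2. It was not counted for the other fits, so member counts at that level in those fits cannot be set against it. With the replicate number as a block, 0 were higher and 0 lower, 4 had an unadjusted p under 0.05 and the median was -0.08; the type I interferon-stimulated genes called lower were then 15, and 3 without a trend. The median log2 fold change was -0.46 to 0.23 when 1 array was left out and 0.04 with array medians set equal, where the median of all probe sets tested was 0.01 in place of -0.10 and 1595 probe sets were called higher and 738 lower, against 1342 and 1685.

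Some values changed sign, none of them called. With array medians set equal Igtp was 0.038 and Irgm2 0.0018. With NHE3-/- array 3 alone, a fit that assumes it to vary like the NHE3+/+ arrays, Gbp7 probe set 1434380_at was -0.24, Iigp1 -0.10 and -0.14, Ifi47 -0.045 and Gbp2b -0.082. When 1 array was left out, Gbp7 probe set 1434380_at ran from -0.17 to 0.31, Iigp1 from -0.31 to 0.40 and from -0.38 to 0.54, Ifi47 from -0.12 to 0.50, Igtp from -0.56 to 0.23, Irgm1 from -0.46 to 0.069 and Irgm2 from -0.51 to 0.11; the lowest of each came without NHE3-/- array 2. The cause was not tested.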

Other observations

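The probe set annotated to both Tgtp1 and Tgtp2, effector IRGs that cannot be separated on it, gave 242.3, 932.2 and 484.7 on NHE3-/- arrays 1, 2 and 3, against 225.8, 413.1 and 166.2 on NHE3+/+ arrays (log2 fold change 0.86, SE 0.41, limma adjusted p = 0.198). Like the member probe sets it was highest on NHE3-/- array 2 and lowest in its genotype on NHE3+/+ array 3. The probe set annotated to both Gm4070 and Gvin1, giant GTPases related to GBPs and IRGs, gave 563.6, 1251.8 and 955.4, against 1190.8, 1722.3 and 1229.4 in NHE3+/+ colon (-0.61, SE 0.25, adjusted p = 0.136).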
